A study of Mus musculus with 6 samples.

Results

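The cytotoxic granule genes described here are 9 genes on Affymetrix MoGene 1.0 ST arrays of CD4 T cells: the granzymes Gzma, Gzmb, Gzmk and Gzmm, the pore-forming protein perforin (Prf1), the granule membrane protein Nkg7, and the intracellular serpins Serpinb9, Serpinb6b and Serpinb1a. They were taken by gene symbol, as the array rows whose platform annotation gives exactly 1 of these symbols. All 9 were found, with 1 row each, among 19935 genes. The set was chosen by the difference between genotypes measured on these same arrays, so its values are given as a description and carry no test of their own. The samples are CD4+CD62L- T cells, called resting in the labels and purified from mouse lymph nodes by flow sorting. In the 3 Dicer KO samples, both alleles of Dicer are floxed and Cre is expressed under the Cd4 promoter. In the 3 Dicer WT samples, the same floxed alleles are present without Cre. The presence of Cre therefore differs between the genotypes together with the deletion. No treatment was given. The sources used here give neither age nor strain.

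Cytotoxic lymphocytes store granzymes and perforin in secretory granules. Perforin opens pores in the membrane of a target cell, and granzymes, which are serine proteases, enter through them and cleave proteins whose cleavage leads to cell death. Granzyme that leaks from granules can harm the cell that makes it, and serpins of clade B in the cytosol act as inhibitors that trap such proteases. The programme is best known from CD8 T cells and natural killer (NK) cells, and subsets of effector and regulatory CD4 T cells can use it as well. Dicer cuts microRNA precursors into mature microRNAs.

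Deposited values are on a log scale read as log2, and each row has its own median over the 6 arrays set to 0, so a value tells how arrays differ for 1 gene and not how abundant a transcript is. The row median of 6 values lies midway between the middle pair, so the arrays nearest to 0 often mirror each other. In the sorted cells, fewer cells that express a gene and less RNA per cell cannot be told apart. A difference is Dicer KO minus Dicer WT, with the standard error (SE) of the limma fit.

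The promoter windows of 4 genes are shown because these genes carry the contrasts described below: Serpinb9 differed most, Serpinb6b lies next to it and differed little, Prf1 had a Dicer WT array unlike the others, and Gzma is the granzyme with the largest difference. Each window runs from 250 bases before to 50 bases after the annotated start, 5′ to 3′ on the gene's strand, from RefSeq on GRCm38.p6. The sources used here name no build for the arrays. Capitals mark matches, on either strand, to the searched motifs, which are named after the sequences.
Serpinb9, chr13:33004291-33004590, plus strand: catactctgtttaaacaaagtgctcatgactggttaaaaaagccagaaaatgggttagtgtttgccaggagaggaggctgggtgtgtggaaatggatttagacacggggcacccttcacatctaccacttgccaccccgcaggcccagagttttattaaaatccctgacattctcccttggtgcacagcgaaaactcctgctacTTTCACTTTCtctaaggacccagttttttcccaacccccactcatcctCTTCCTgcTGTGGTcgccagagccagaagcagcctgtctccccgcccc
Serpinb6b, chr13:32965011-32965310, plus strand: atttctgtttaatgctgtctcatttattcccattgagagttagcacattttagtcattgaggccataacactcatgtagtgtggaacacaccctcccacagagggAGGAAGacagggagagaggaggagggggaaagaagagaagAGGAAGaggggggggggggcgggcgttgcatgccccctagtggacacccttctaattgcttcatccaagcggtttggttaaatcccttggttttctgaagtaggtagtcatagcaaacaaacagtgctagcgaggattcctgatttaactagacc
Gzma, chr13:113100932-113101231, minus strand: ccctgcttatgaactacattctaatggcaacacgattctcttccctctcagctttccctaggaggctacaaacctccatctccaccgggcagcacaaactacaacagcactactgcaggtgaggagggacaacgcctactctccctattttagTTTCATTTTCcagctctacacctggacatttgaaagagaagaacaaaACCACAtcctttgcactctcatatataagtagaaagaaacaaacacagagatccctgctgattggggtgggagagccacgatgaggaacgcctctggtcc
Prf1, chr10:61297586-61297885, plus strand: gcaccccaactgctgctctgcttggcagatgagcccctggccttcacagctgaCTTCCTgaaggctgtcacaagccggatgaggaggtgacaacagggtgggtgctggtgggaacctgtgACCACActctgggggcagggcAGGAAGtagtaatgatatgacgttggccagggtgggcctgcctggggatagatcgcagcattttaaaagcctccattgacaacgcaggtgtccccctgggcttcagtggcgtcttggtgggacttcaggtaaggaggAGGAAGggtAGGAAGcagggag

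The search covered 7 motifs on both strands in the windows of the 8 genes that had one, and Serpinb1a had no entry. The interferon-stimulated response element (ISRE), searched as GAAA, any 2 bases and GAAA, was present in Serpinb9 at -46 from the start and in Gzma at -97, and in 3.44% of all 32851 windows. The Runx core TGTGGT was found in 6 of the 8 genes, Serpinb9, Gzma, Gzmb, Gzmm, Prf1 and Nkg7, and in 16.8% of all windows. The ETS core AGGAAG was found in 5 of the 8, Serpinb9, Serpinb6b, Prf1, Gzmm and Nkg7, with 4 matches in Prf1 and 2 in Serpinb6b, and in 35.4% of all windows. The T-box site AGGTGTGA was found in Nkg7 (1.28% of windows), the AP-1 motif TGANTCA in Gzmb (7.81%) and the kappaB motif in Gzmk (8.46%). The STAT motif TTCNNNGAA was found in Gzmb, Gzmm and Nkg7 (8.30%). No matches overlap in the printed windows. A match of letters is not evidence of binding.

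Among the 9 genes, Serpinb9, Prf1 and Serpinb1a had the largest differences, 1.56, 0.67 and 0.42 on the log2 scale, each with a higher mean in Dicer KO. Differences of the granzymes ran from -0.038 for Gzmm to 0.22 for Gzma, and those of Serpinb6b and Nkg7 were 0.20 and -0.096. Differences were positive for 7 genes and negative for 2, and the median was 0.20, against -0.011 over all genes. In the fit across all genes 1 of the 9, Serpinb9, was past the adjusted p threshold of 0.05, on the higher side, and 0 were on the lower side. Over all genes, 8.73% passed, 5.94% higher and 2.79% lower in Dicer KO. Dicer KO and Dicer WT arrays did not overlap for 6 of the 9 genes, against 26.2% of all genes. Nothing is read from these shares, since the genes were chosen with this contrast known.

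**Figure D1:**
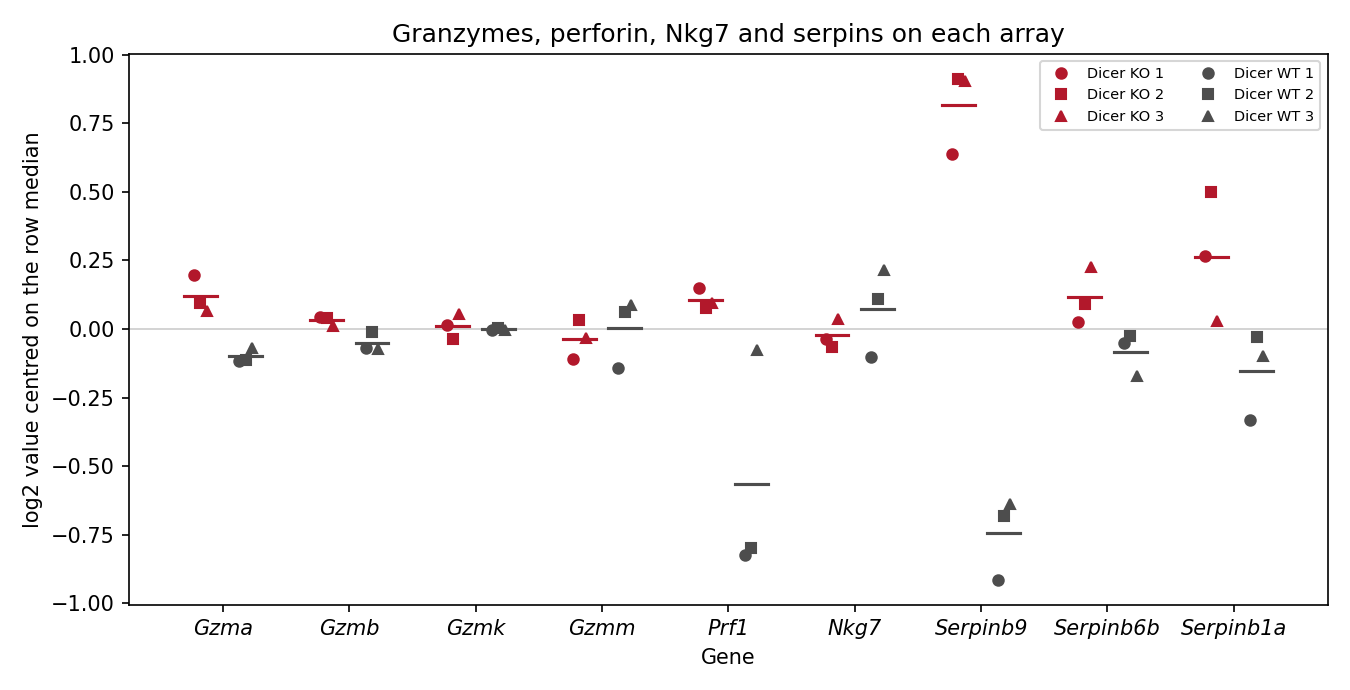
Centred log2 values (y axis) of the 9 genes (x axis) on each of the 3 Dicer KO arrays (red, left) and 3 Dicer WT arrays (grey, right); bars are genotype means. Serpinb9 separates the genotypes most, and Prf1 has Dicer WT 3 at -0.077 near the Dicer KO arrays while the other Dicer WT arrays lie at -0.82 and -0.80.

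Serpinb9, the cytosolic inhibitor of granzyme B, had values of 0.64, 0.91 and 0.90 on Dicer KO 1 to 3, against -0.91, -0.68 and -0.64 on Dicer WT 1 to 3. Every Dicer KO array lay above every Dicer WT array, and the gap between the groups exceeded the spread within either. The genotype means were 0.82 ± 0.16 in Dicer KO and -0.74 ± 0.15 in Dicer WT (SD, n = 3 each), a difference of 1.56 ± 0.10 (SE), or 2.95-fold. This was the difference of rank 21 of 19935 genes, counted from the highest. With any 1 array left out it lay between 1.48 and 1.65.

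Serpinb6b, a clade B serpin and the immediate neighbour of Serpinb9 on the chromosome, read 0.027, 0.091 and 0.23 on Dicer KO 1 to 3, against -0.052, -0.027 and -0.17 on Dicer WT 1 to 3. The groups did not overlap but nearly touched, at 0.027 and -0.027. The difference was 0.20 ± 0.070, or 1.15-fold. Serpinb1a, the mouse counterpart of the inhibitor of neutrophil elastase and related proteases, read 0.26, 0.50 and 0.028 on Dicer KO 1 to 3, against -0.33, -0.028 and -0.099 on Dicer WT 1 to 3. Dicer KO 2 was high and Dicer WT 1 low, and the nearest arrays were Dicer KO 3 and Dicer WT 2. The difference was 0.42 ± 0.13, or 1.34-fold, and ranged from 0.30 without Dicer KO 2 to 0.54 without Dicer KO 3, where it was past the threshold.

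Prf1, which encodes perforin, read 0.15, 0.077 and 0.095 on Dicer KO 1 to 3, against -0.82, -0.80 and -0.077 on Dicer WT 1 to 3. The Dicer KO arrays lay within a narrow band, while Dicer WT 3 stood apart from the other Dicer WT arrays and close to Dicer KO. The means were 0.11 ± 0.037 in Dicer KO and -0.57 ± 0.42 in Dicer WT (SD, n = 3 each). The difference was 0.67 ± 0.19, or 1.60-fold, and it was not past the threshold. Without Dicer WT 3 it was 0.92 ± 0.055 and past the threshold, and without Dicer WT 1 or Dicer WT 2 it was 0.55 or 0.56 and not past it. Dicer WT 3 also stood apart over all genes: on the principal component with 21.2% of the variance of the 19935 genes, Dicer KO 3 and Dicer WT 3 lay at -10.5 and -14.1, and the other arrays between -1.89 and 10.2. Of the 9 genes Prf1 alone was in the higher level class, which a binary step in the stored numbers gives for rows at 8 or more before centring on all 6 arrays.

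Gzma, the tryptase-like granzyme, read 0.20, 0.095 and 0.068 on Dicer KO 1 to 3, against -0.12, -0.11 and -0.068 on Dicer WT 1 to 3. The groups did not overlap, and the difference of 0.22 ± 0.054 corresponds to 1.16-fold. Gzmb, which cleaves after aspartate and activates caspases, read 0.044, 0.041 and 0.010 on Dicer KO 1 to 3, against -0.068, -0.010 and -0.074 on Dicer WT 1 to 3. The groups did not overlap, with Dicer KO 3 and Dicer WT 2 nearest to each other, and the difference was 0.083 ± 0.047, with a range of 0.12 over all 6 arrays.

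Gzmk, another tryptase-like granzyme and the chromosomal neighbour of Gzma, had values of 0.014, -0.037 and 0.056 on Dicer KO 1 to 3, against -0.0019, 0.0019 and -0.0035 on Dicer WT 1 to 3. Dicer KO arrays lay on both sides of the Dicer WT arrays, and the difference was 0.012 ± 0.048. Gzmm, which cleaves after methionine and leucine, read -0.11, 0.034 and -0.034 on Dicer KO 1 to 3, against -0.14, 0.064 and 0.086 on Dicer WT 1 to 3. The groups overlapped, and the difference was -0.038 ± 0.076. Nkg7, a granule membrane protein of cytotoxic lymphocytes, read -0.036, -0.064 and 0.036 on Dicer KO 1 to 3, against -0.10, 0.11 and 0.22 on Dicer WT 1 to 3. These groups overlapped as well, with a difference of -0.096 ± 0.085.

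The genes fell apart in how they varied over the 6 arrays. Gzmm and Nkg7, both lowest on Dicer WT 1, had a Pearson correlation of 0.77 with each other, and -0.079 and -0.34 with Serpinb9. Serpinb9 had correlations of 0.89 with Gzma, 0.86 with Gzmb, 0.83 with Prf1, 0.81 with Serpinb6b and 0.81 with Serpinb1a, but 0.21 with Gzmk. These are descriptions over 6 arrays that share the genotype contrast. Serpinb9 had the largest range over the arrays (1.83), and the genes with the profile most like it, among 457 genes with a range of at least 1, were the Wnt pathway and adhesion protein Ctnnb1, the ETS family repressor Etv6, the nuclear receptor Nr1d1, D17H6S56E-5 and the lysosomal membrane protein Scarb2, with correlations of 0.995 to 0.998. Their differences were 0.90 ± 0.070, 0.88 ± 0.087, 1.20 ± 0.095, 2.44 ± 0.18 and 0.91 ± 0.087.

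Position on the chromosome was compared next, by gene order in RefSeq. Serpinb9, Serpinb6b and Serpinb1a lie in a cluster of 16 clade B serpin genes on chromosome 13, of which 13 were measured. Of the 10 other measured genes of the cluster, 0 passed the threshold, with differences from -0.45 to 0.10. The gene at -0.45 was Serpinb6a, with -0.066, -0.28 and -0.36 on Dicer KO 1 to 3, against 0.43, 0.066 and 0.15 on Dicer WT 1 to 3 (SE 0.11, adjusted p = 0.0559), and it was past the threshold without Dicer KO 1 (adjusted p = 0.0462). Serpinb9b, on the other side of Serpinb9 from Serpinb6b, had a difference of 0.10 ± 0.066 (adjusted p = 0.465). Close relatives in this cluster can share probe sequence, so a signal cannot be assigned to 1 of them with certainty.

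Gzmb lies in a cluster with 6 other granzyme genes on chromosome 14, and 0 of these 7 passed the threshold. Differences of the other 6 ran from -0.16 for Gzme to 0.039 for Gzmf, and their median was -0.017. Gzmc had a difference of -0.12 ± 0.069 (adjusted p = 0.394) and Gzme one of -0.16 ± 0.11 (adjusted p = 0.466), and 0 of the 6 had an unadjusted limma p below 0.05. Within 3 protein-coding genes on either side of the 9, 2 of 36 measured neighbours passed, against 8.73% of all genes. They were named after their values were seen: Snx18, near Gzmk, and Adamts14, which directly precedes Prf1. Adamts14 read 0.54, 0.35 and 0.28 on Dicer KO 1 to 3, against -0.28, -0.51 and -0.34 on Dicer WT 1 to 3 (difference 0.77 ± 0.088, adjusted p = 0.00362). Unlike for Prf1, Dicer WT 3 lay between the other Dicer WT arrays.

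**Figure D2:**
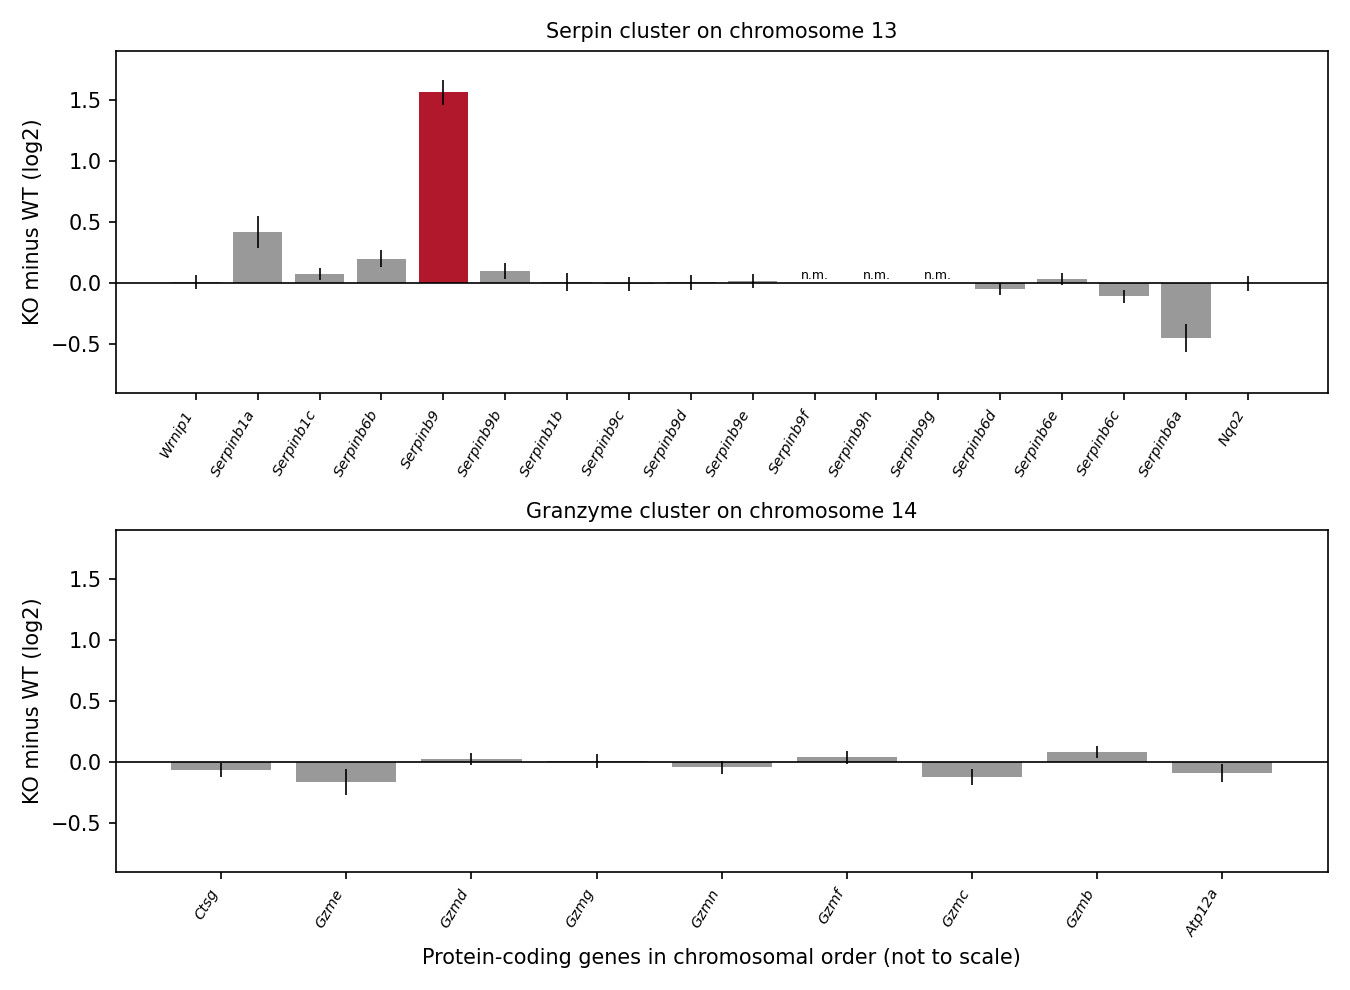
Differences, Dicer KO minus Dicer WT on the log2 scale (y axis, bars; error bars are SE), of the genes of the serpin cluster and the granzyme cluster with 1 flanking gene on each side, in chromosomal order and not to scale; red bars are past the adjusted p threshold and n.m. marks genes with no value here. Serpinb9, at 1.56, is the 1 red bar, and the 7 granzyme genes lie between -0.16 and 0.083.

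The other genes of the pathway were followed through 7 lists with 99 measured of 105 listed genes. Of these, 16 rose and 3 fell in Dicer KO, which is 19.2% against 8.73% of all genes, with a median difference of 0.044 against -0.011. The count of 19 was 7 without Dicer KO 2 and 8 without Dicer WT 1. In a fit of the higher level class alone, 1003 of 2992 genes were called, and 14 of 22 from the lists. The lists hold genes of T cells whose expression was partly known from earlier results, and nothing particular to them is claimed. Counts of each list below stand beside 5.94% of all genes higher and 2.79% lower, and nothing is read from a single list.

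Granule proteins and enzymes of granzyme maturation had 3 of 11 members higher and 0 lower, with a median of 0.037. Ctsc, the cathepsin that removes the propeptide of granzymes, read 0.16, 0.37 and 0.21 on Dicer KO 1 to 3, against -0.26, -0.28 and -0.16 on Dicer WT 1 to 3 (difference 0.48 ± 0.069, adjusted p = 0.00765). Calr, the chaperone calreticulin, which also binds perforin, rose by 0.75 ± 0.089 (adjusted p = 0.00402), and the lysosomal membrane protein Lamp2 by 0.72 ± 0.078 (adjusted p = 0.00311). The groups did not overlap for any of these 3 genes, and the 3 calls held with any 1 array left out. Srgn, the proteoglycan that holds granzymes in the granule, had a difference of -0.11 ± 0.061 (adjusted p = 0.392), and Ctsw, a cathepsin of cytotoxic lymphocytes, one of -0.31 ± 0.098 (adjusted p = 0.112). Neither passed, and both are named after their values were seen.

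In the list of granule exocytosis, 2 of 17 members rose and 1 fell, with a median of 0.071. Ap3d1, a subunit of the AP-3 adaptor that sorts granule proteins, rose by 0.33 ± 0.050 (adjusted p = 0.00924) and kept its call with any 1 array left out. Stx7, a syntaxin of the endosome, rose by 0.40 ± 0.079 (adjusted p = 0.0238) and Stx4a, a syntaxin of the plasma membrane, fell by 0.50 on the log2 scale (SE 0.099, adjusted p = 0.025). Without any 1 array but Dicer WT 2, Stx7 lost its call (adjusted p 0.0519 to 0.0858), and Stx4a did without any but Dicer WT 3 (0.0527 to 0.0943). The list's count of 3 was 1 without Dicer KO 2 or Dicer WT 1.

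Among substrates of granzymes and their uptake receptor, 2 of 10 rose and 1 fell, with a median of 0.079. Igf2r, the mannose 6-phosphate receptor reported to take up granzyme B, read 0.28, 0.35 and 0.30 on Dicer KO 1 to 3, against -0.28, -0.29 and -0.40 on Dicer WT 1 to 3 (difference 0.64 ± 0.054, adjusted p = 0.00134), and its call held with any 1 array left out. Trex1 and Nme1, nucleases of the SET complex that granzyme A attacks, moved in opposite directions, by 0.44 ± 0.088 (adjusted p = 0.0257) and -0.52 ± 0.10 (adjusted p = 0.0234). Trex1 was not called without Dicer KO 1, Dicer KO 3, Dicer WT 1 or Dicer WT 3 (adjusted p 0.0579 to 0.0961), nor Nme1 without Dicer KO 1, Dicer KO 2, Dicer WT 2 or Dicer WT 3 (0.0558 to 0.0995). The list's count of 3 was 1 without Dicer KO 1 or Dicer WT 3, and 2 without any 1 of the other arrays. Across the genome, 0 of 19 other clade B serpins were past the threshold (limma; 2 had an unadjusted p below 0.05, Serpinb6a and Serpinb8), with a median of 0.015.

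Transcription factors of cytotoxic and effector differentiation had 7 of 19 members higher and 1 lower, against 5.94% and 2.79% of all genes, with a median of 0.19. Gata3, which directs Th2 cells, rose by 0.71 ± 0.062 (adjusted p = 0.00145), and Bcl6 and Bach2, repressors of effector programmes, by 0.57 ± 0.091 (adjusted p = 0.0115) and 0.44 ± 0.075 (adjusted p = 0.0147). Stat4, which signals for interleukin 12, rose by 0.68 ± 0.12 (adjusted p = 0.0158) and Runx3, which promotes cytotoxic genes in CD8 T cells, by 0.37 ± 0.066 (adjusted p = 0.0171). Gata3 kept its call with any 1 array left out. Bcl6 lost it without Dicer KO 2 (adjusted p = 0.0578), and Bach2, Stat4 and Runx3 lost theirs without Dicer KO 2 or Dicer WT 1 (0.0558 to 0.0736). The lower member was Id2, named after its value was seen, at -0.82 ± 0.15 (adjusted p = 0.019), and not called without Dicer KO 2, Dicer WT 1 or Dicer WT 2 (0.0548 to 0.0786). The list's count of 8 was 1 without Dicer KO 2, 2 without Dicer WT 1 and 5 without Dicer WT 2.

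Tbx21 and Eomes, the T-box factors that drive perforin and granzyme genes in cytotoxic cells, had differences of -0.02 ± 0.062 (adjusted p = 0.912) and 0.17 ± 0.12 (adjusted p = 0.473), and are named after their values were seen. Of 17 other effector genes 2 rose and 0 fell, with a median of 0.065: the interleukin 18 receptor chain Il18r1 (0.44 ± 0.083, adjusted p = 0.0201) and the cytokine Tnf (0.34 ± 0.065, adjusted p = 0.0228). Il18r1 was not called without Dicer KO 1, Dicer KO 2 or Dicer WT 1 (adjusted p 0.0584 to 0.0889), nor Tnf without these or Dicer WT 2 (0.0645 to 0.0998). The list had 4 calls without Dicer KO 3, 1 without Dicer WT 2 and 0 without Dicer KO 1, Dicer KO 2 or Dicer WT 1.

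**Figure D3:**
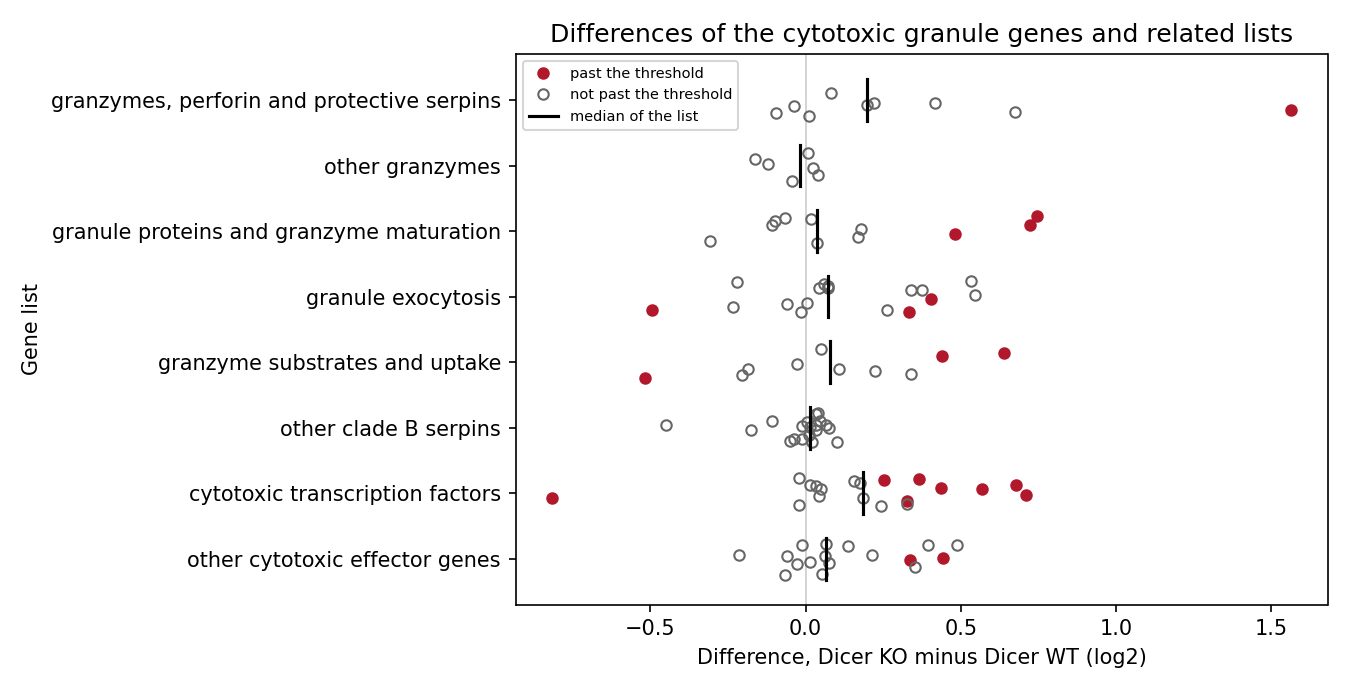
Differences, Dicer KO minus Dicer WT on the log2 scale (x axis), of the 9 genes (top line) and of the 7 related lists (y axis); each point is a gene, filled red where it passed the adjusted p threshold, and black bars are list medians. Serpinb9 lies at 1.56 beyond every other point shown, and the other granzymes and other clade B serpins hold 0 red points.

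Markers of cells that could carry cytotoxic granules were examined beside these values. Levels are not known from centred values, so list medians are given per array for the NK cell and B cell markers. Counts of markers past the threshold stand beside 8.73% of all genes. For 13 measured NK cell markers they were 0.0046, -0.0014 and 0.011 on Dicer KO 1 to 3, against -0.016, 0.016 and -0.016 on Dicer WT 1 to 3, and 0 of the 13 passed (limma; 2 had an unadjusted p below 0.05). Those were Klrd1, an NK receptor chain that T cells can express too, and the integrin Itga2. Klrd1 read 1.27, 0.93 and -0.012 on Dicer KO 1 to 3, against -0.19, -0.23 and 0.012 on Dicer WT 1 to 3 (difference 0.87 ± 0.30, adjusted p = 0.136). It was thus high on Dicer KO 1 and Dicer KO 2 alone, and was called without Dicer KO 3 (1.24, adjusted p = 0.00581). Itga2 had a difference of 0.38 ± 0.12 (adjusted p = 0.108) and was called without Dicer KO 1 (adjusted p = 0.0145). The receptors Ncr1 and Klrb1c, also on the NK cell list, differed by 0.07 ± 0.052 (adjusted p = 0.547) and 0.06 ± 0.072 (adjusted p = 0.756).

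Of 2 CD8 T cell markers, 0 passed (limma; 1 had an unadjusted p below 0.05). Cd8a differed by -0.09 ± 0.18 (adjusted p = 0.857) and Cd8b1 by -0.26 ± 0.066 (adjusted p = 0.0567), and Cd8b1 was called without Dicer KO 1 (adjusted p = 0.0315). Of 6 T cell markers 2 passed and 4 did not. Cd4 was higher by 0.67 ± 0.074 (adjusted p = 0.00328) and Cd5 lower, at -0.44 ± 0.062 (adjusted p = 0.00704). Differences of the 6 were positive for 3 and negative for 3, with a median of -0.0072. Cd44, a marker of antigen-experienced T cells, had a difference of 0.28 ± 0.14 (adjusted p = 0.304). Of 5 regulatory T cell markers Gpr83 alone passed (0.92 ± 0.22, adjusted p = 0.0471), and not without any 1 array but Dicer KO 1 (0.0592 to 0.167), while Foxp3 differed by 0.12 ± 0.11 (adjusted p = 0.605).

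The median of 7 B cell markers was 0.051, 0.049 and 0.076 on Dicer KO 1 to 3, against -0.56, 0.0084 and -0.27 on Dicer WT 1 to 3, so that Dicer WT 1 and Dicer WT 3 were low. Of them, 0 passed (limma; 6 had an unadjusted p below 0.05), among which Ms4a1 differed by 0.68 ± 0.18 (adjusted p = 0.0717) and Cd79b by 0.44 ± 0.13 (adjusted p = 0.0813), and each was called without Dicer WT 2 (adjusted p = 0.00496 and 0.0416). Without Dicer WT 1 and Dicer WT 3, the difference was 1.5 for Serpinb9 and 0.91 for Prf1. That fit has a lone Dicer WT array, whose spread is assumed to be that of the Dicer KO arrays. For Prf1 the difference was 0.92 without Dicer WT 3 alone. Differences of the 7 B cell markers were positive for 7 and negative for 0, with a median of 0.33. The myeloid gene Lyz2 rose by 0.69 ± 0.12 (adjusted p = 0.0165), not called without Dicer KO 2 or Dicer WT 1 (0.0654 to 0.0699), and was the 1 call among 7 myeloid markers. Differences of these 7 markers were positive for 3 and negative for 4, with a median of -0.021. Ccr9, listed for plasmacytoid dendritic cells and also a homing receptor of T cells, rose by 1.18 ± 0.20 (adjusted p = 0.015), not called without Dicer WT 1 (adjusted p = 0.0611). The other 3 markers measured on that list did not pass. Differences of the 4 markers together were positive for 3 and negative for 1, with a median of 0.097. Of 4 markers of mast cells and basophils, 0 passed and 0 had an unadjusted limma p below 0.05, with Ms4a2 at -0.058 ± 0.068 and Mcpt8 at -0.033 ± 0.075. The part of these markers in the values of the 9 genes was not tested. The row of Dicer1 itself differed by 0.02 ± 0.093 (adjusted p = 0.949). The sources used here do not say which exons its probes cover, so it checks nothing about the deletion.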

How the data were processed

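RNA of 6 samples was measured on 1-colour MoGene 1.0 ST arrays. The authors deposited 1 table of 28815 rows by 6 arrays of log values, read here as log2. No source used here gives the log base, scale or normalization. MAS5 is named, with no role, per the submitters' processing notes. Every row was centred on its median (largest absolute row median 5e-07), per the values. A coarse level class came from the binary step of the stored numbers: 16.4% of rows were at 8 or more, including 90.3% of 216 ribosomal protein rows and 1.45% of 1035 olfactory receptor rows, and a row's class can be wrong.

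Rows with 1 symbol (21780) were identified by the platform annotation. Of these, 21689 took the RefSeq (GRCm38.p6) symbol of their gene identifier, changed or not, and 91 kept the annotated symbol. Rows of a gene were averaged. Rows with several symbols (1605) or unnamed here (5430) were left out. Genotypes were taken from the labels, and the design text calls the samples biological replicates. Differences were fitted with limma 3.58.1 in R 4.3.3 (lmFit, eBayes) on all 19935 genes, with Benjamini-Hochberg adjustment and a threshold of 0.05. The 9 genes and the lists were chosen with earlier results of these data known. Named genes are the 9; of each list up to 5 past the threshold by lowest p, or 2 where none passed; Cd4, Cd8a and Cd44; and the 5 genes most like the member of largest range. Srgn, Ctsw, Id2, Tbx21, Eomes, Ncr1, Klrb1c, Foxp3, Serpinb9b, Gzmf, Adamts14 and Snx18 fall outside this rule and were named after their values were seen. Dicer1, also outside it, is given because it is the targeted gene. Data for Dicer KO against Dicer WT were simulated for 19935 genes with independent noise. The log2 difference was set to 0.5 for 68 genes, 1 for 66 and 2 for 66. The share of altered genes recovered was 57.4% at 0.5, 92.4% at 1 and 98.5% at 2, and 7 unaltered genes were called. Far fewer genes were altered there than were called on these arrays, so the shares may not hold for them. The number of arrays limits the precision.

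Samples with the same replicate number had correlated deviations for numbers 1 and 3 (0.27 and 0.30) but not 2 (-0.076), so the numbers were not taken as pairs. Alternatives were leaving out each array, a replicate block, array weights, robust empirical Bayes, 2 scalings, 1 row per gene, rows with several symbols, and the higher level class. Leaving out Dicer KO 3 and Dicer WT 3 together, or Dicer WT 1 and Dicer WT 3 together, was added after seeing the data.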

Additional observations from a re-analysis of the deposited data

How the results depend on the processing

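Serpinb9 was higher in Dicer KO and past the threshold under all 15 alternatives that gave it a value, with differences from 1.34 to 1.65. It was not in the higher level class, so that setting gave it none. Of the 9 genes, 1 was past the threshold with all arrays and 1 to 2 with any 1 array left out. The count was 4 with array weights (Serpinb9, Prf1, Gzma and Serpinb1a), 2 with arrays centred on their medians, 2 with quantile normalization and 2 with rows of several symbols kept (Serpinb9 and Gzma in these 3), and 2 without Dicer KO 3 and Dicer WT 3 and 2 without Dicer WT 1 and Dicer WT 3 (Serpinb9 and Prf1 in both). In the higher level class, Prf1 was the 1 gene tested and was past the threshold. Gzmk and Gzmm changed sign under some alternatives, within -0.011 to 0.036 and -0.11 to 0.016. Over all genes 1741 were called, 729 to 1597 with any 1 array left out, 1003 of 2992 in the higher level class and 213 without Dicer WT 1 and Dicer WT 3, a fit that rests on a lone Dicer WT array assumed to vary like the Dicer KO arrays. The related lists had 19 calls, 7 to 20 with any 1 array left out and 2 without Dicer WT 1 and Dicer WT 3. A replicate block gave 2063 calls over all genes, 1 among the 9 and 25 in the related lists, and changed no call of the 9. In the check of deviations from the genotype means, 4 of the 6 samples correlated best with the sample of their own number. The scalings moved the median difference of all genes to -0.004 and -0.0049, and the higher level class had a median of 0.12. The causes of these shifts, the smaller number of samples or genes among them, were not tested. Signal over background is not known from centred values, so a small difference of a granzyme may be that of a gene near background.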
